A study of Rattus norvegicus with 40 samples.

Results

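Kinesins are motor proteins that use ATP to walk along microtubules or to take their ends apart. In the resting liver they carry vesicles, mitochondria and endosomes through hepatocytes and build primary cilia on bile duct cells. A separate set is made when cells divide, and builds the spindle, lines up the chromosomes and separates the daughter cells. The genes described here were all rows of the gene count files whose symbol begins with Kif and a digit, with a mean of at least 0.1 CPM (the usual unit of a gene's read pairs scaled to library size) over all libraries. Of 31 such symbols among 17337 genes, 29 were kept. The 9 mitotic members were Kif11, Kif15, Kif18a, Kif18b, Kif20a, Kif20b, Kif22, Kif23 and Kif2c, and the other 20 were Kif12, Kif13a, Kif13b, Kif16b, Kif19, Kif1b, Kif1bp, Kif1c, Kif21b, Kif26a, Kif26b, Kif27, Kif2a, Kif3a, Kif3b, Kif3c, Kif5a, Kif5b, Kif5c and Kif9. Kif1bp has a kinesin symbol here but encodes a protein that binds kinesins and holds them off the microtubule, not a motor. Kif28p, with at most 4 counts in a library, and Kif2b, with 0 counts in all 40 libraries, were too low, and the mitotic kinesins Kif4a and Kif14 were not analysed here.

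The libraries came from liver of male Fischer 344 rats that were 7 weeks old when treatment began. DEN (diethylnitrosamine, a carcinogen that liver enzymes turn into a DNA alkylating agent) was given into the peritoneum once a week at 50 mg/kg, for 8 weeks, for 14 weeks, or for 14 weeks followed by 6 weeks without it (the 20 week group). Non-tumoral (NT) liver was taken from DEN-treated rats at 8, 14 and 20 weeks, 2 tumor nodules per rat at 14 and 20 weeks, together with livers from age-matched rats never given DEN (no DEN) at each time, with 4 rats in each of the 8 groups and 24 rats and 40 libraries in all. NT liver and nodules came from the same rats. The counts of a rat's 2 nodules were summed, so that every value named "per rat" below has n = 4 per group.

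Promoters of 4 members are shown first, to show the sequence before the start of 3 mitotic members and of Kif12, which were called higher at 8 and 14 weeks and in nodules. Genes expressed late in the cell cycle often carry a CCAAT box and a TTTGAA element (the cell cycle genes homology region) just before the start of transcription. The sequences are RefSeq windows on build GRCr8, whereas the counts were made on rn6. Each line gives the 110 bases before the start, 5′ to 3′ on the strand of the gene, with any CCAAT or TTTGAA, on either strand, in capitals.
Kif22 (chr1:191080879-191080988, minus strand): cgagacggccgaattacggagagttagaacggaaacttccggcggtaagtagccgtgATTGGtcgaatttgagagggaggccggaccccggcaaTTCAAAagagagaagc
Kif23 (chr8:71320585-71320694, minus strand): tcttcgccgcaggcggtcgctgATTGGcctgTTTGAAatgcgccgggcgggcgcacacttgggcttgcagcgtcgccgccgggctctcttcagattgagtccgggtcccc
Kif11 (chr1:244536757-244536866, plus strand): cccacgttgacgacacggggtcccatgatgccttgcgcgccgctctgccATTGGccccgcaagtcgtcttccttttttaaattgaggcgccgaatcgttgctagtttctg
Kif12 (chr5:81618370-81618479, minus strand): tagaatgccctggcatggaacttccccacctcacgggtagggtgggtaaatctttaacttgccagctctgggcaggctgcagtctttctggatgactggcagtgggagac
The Kif22 stretch held both elements, 53 and 16 bases before the start, and so did the Kif23 stretch, 88 and 79 bases before it. Kif11 held a CCAAT box 61 bases before the start. Kif12 held neither, and 1 CpG in its whole window against 17 in that of Kif22, 29 in that of Kif23 and 25 in that of Kif11. Windows of 250 bases before to 50 after the start existed for 23 of 29 members. On either strand, CCAAT was present in 5 of 9 mitotic members (Kif11, Kif20a, Kif20b, Kif22, Kif23) and in 4 of 14 others (Kif1b, Kif26b, Kif3b, Kif5b), against 37.5% of all 33469 windows. TTTGAA was present in 4 of 9 mitotic members (Kif15, Kif20b, Kif22, Kif23) and in 1 of 14 others (Kif26b), against 18.3% of all windows. The E2F motif TTTGGCGC was found in Kif18a alone (0.493% of all windows), TTTCGCGC in no member (0.326% of all windows), and the cAMP response element TGACGTCA in Kif15, Kif18a and Kif5c (1.83% of all windows). These are matches of letters and not shown to be bound.

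Between 20528515 and 160622633 read pairs were counted per library (median 30477421). At the median depth a gene at 1 CPM had 30.5 counts, with a counting error of 18.1%. The summed hepatocyte markers lay between 158328 and 322120 CPM per rat. Among other markers 3 to 4 of 7 of leukocytes and macrophages and 4 of 5 of endothelium were called higher in each comparison of NT liver or nodules with no DEN liver. Of all genes tested, 14.3% to 23.9% were called higher in these comparisons. Neuron markers were low, with at most 2 of 5 passing the filter on low counts in a comparison, but differed between groups. Their summed level at 14 weeks was 0.178 to 0.390 CPM per rat without DEN, 1.03 to 2.58 in NT liver and 1.11 to 3.11 in nodules. At 20 weeks it was 0.238 to 0.422, 0.638 to 1.65 and 1.52 to 3.66 CPM in the same order. The part of neuron markers in the kinesin values was not tested. In the labels 4 of the treated rats are numbered F (F09 and F10 at 8 weeks, F06 at 14 weeks, F03 at 20 weeks) and the remaining rats H. No untreated rat is numbered F, so counts without the F rats are given where they differ.

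Groups were compared with the quasi-likelihood test of edgeR over all genes that passed its filter on low counts. A gene was called when its log2 fold change was at least 0.5 in size and its Benjamini-Hochberg adjusted p at most 0.05. Kif19 and Kif5c were too low to be tested in any comparison, Kif27 in any against no DEN liver, and Kif9 in the comparisons of NT with no DEN liver. Of the 9 mitotic and 16 or 17 other kinesins tested against no DEN liver, all 9 mitotic members were called higher in 4 of the 5 comparisons and 7 of 9 in NT liver at 20 weeks, and the others split into members called higher, members called lower in nodules and members never called.

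**Figure D1:**
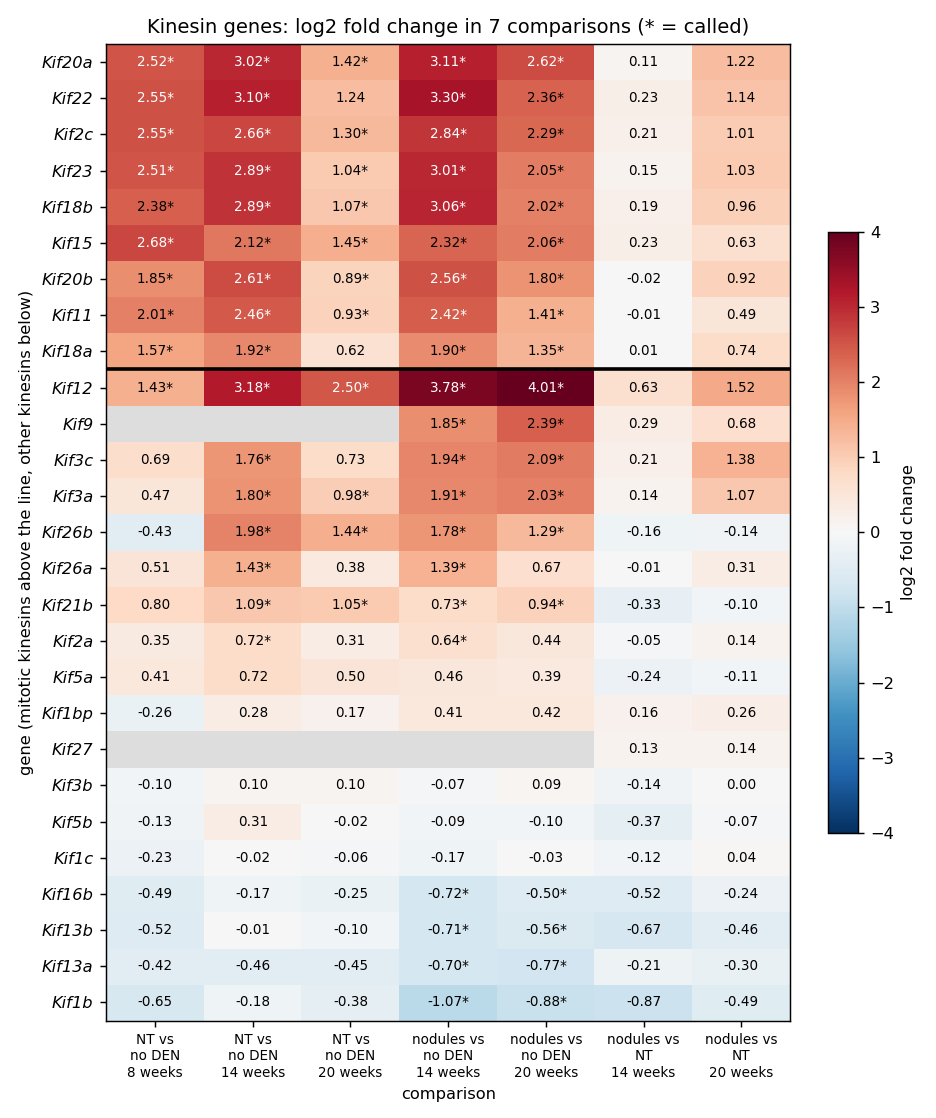
Log2 fold change (colour and number) of every kinesin gene tested (rows, mitotic kinesins above the line) in 7 comparisons (columns), with an asterisk where the gene was called and grey where it was too low to be tested. All 9 mitotic members are red and called in NT liver at 8 and 14 weeks and in nodules at both times against no DEN liver, Kif12 is red throughout, and Kif1b, Kif13a, Kif13b and Kif16b are blue and called in nodules.

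All 9 mitotic kinesins rose in NT liver at 8 and 14 weeks, and 7 of 9 at 20 weeks. At 8 weeks all 9 were called higher, with log2 fold changes of 1.57 to 2.68 and a median of 2.51, while 16.5% of all genes tested were called higher and 5.21% lower (median of all genes -0.01). At 14 weeks all 9 were again called higher, from 1.92 to 3.10 with a median of 2.66 (all genes: 22.8% higher, 9.85% lower, median 0.02). At 20 weeks, after 6 weeks without DEN, 7 of 9 were called higher (all genes: 14.3% higher, 3.82% lower), the 9 fold changes ran from 0.62 to 1.45, and their median was 1.07. In bulk tissue, more dividing cells and more RNA per cell cannot be told apart.

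Kif20a, which works with Kif23 in the separation of daughter cells, shows the course. In no DEN liver at 8 weeks its values per rat were 1.15, 2.06, 2.10 and 2.87 CPM, and in NT liver 9.71, 10.9, 12.4 and 14.4 CPM. At 14 weeks no DEN liver had 1.31, 2.003, 2.39 and 2.92 CPM and NT liver 8.54, 19.6, 23.3 and 17.4 CPM. All DEN-treated rats lay above all untreated rats at both times, and the lowest NT value at 14 weeks was that of rat F06. The log2 fold change was 2.52 (SE 0.23) at 8 weeks (edgeR, Benjamini-Hochberg adjusted p = 4.6e-05) and 3.02 (SE 0.35) at 14 weeks (edgeR, Benjamini-Hochberg adjusted p = 0.000181). At 20 weeks no DEN liver had 2.49, 0.962, 2.47 and 1.51 CPM and NT liver 4.43, 2.48, 5.22 and 7.57 CPM. The ranges touched there, since rat H25 with 2.48 CPM lay below the highest untreated rat, and the log2 fold change was 1.42 (SE 0.37, edgeR, Benjamini-Hochberg adjusted p = 0.0210).

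The other kinesin genes of cell separation followed. Kif23, the motor of the centralspindlin complex, rose from 0.580 ± 0.196 to 3.35 ± 0.542 CPM (SD, n = 4) at 8 weeks and from 0.681 ± 0.273 to 4.99 ± 1.36 CPM at 14 weeks, with log2 fold changes of 2.51 (SE 0.24) and 2.89 (SE 0.30). Kif20b, needed for the last step of the separation, rose by 1.85 (SE 0.23) and 2.61 (SE 0.26). At 20 weeks their fold changes were 1.04 (SE 0.31) and 0.89 (SE 0.30), with edgeR, Benjamini-Hochberg adjusted p of 0.0301 and 0.0467, and both had overlapping ranges.

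Of the motors that set up the spindle, Kif11, which pushes the poles apart, rose by 2.01 (SE 0.25), 2.46 (SE 0.22) and 0.93 (SE 0.23) on the log2 scale at 8, 14 and 20 weeks. Its 4 values in NT liver at 20 weeks were 4.30, 2.89, 5.71 and 5.59 CPM against 2.67, 2.46, 2.76 and 1.97 CPM without DEN, which did not overlap. Kif15, which can hold the poles apart beside Kif11, rose by 2.68 (SE 0.29), 2.12 (SE 0.18) and 1.45 (SE 0.36). Kif15 was the member with the widest rise at 8 weeks, and its no DEN level was itself higher at 14 weeks (0.657 ± 0.0502 CPM) than at 8 weeks (0.330 ± 0.0926 CPM), a difference that was not called (edgeR, Benjamini-Hochberg adjusted p = 0.420).

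Motors that act on chromosomes and on the microtubule ends were Kif22, Kif18a, Kif18b and Kif2c. Kif22, which pushes chromosome arms, had 0.958, 1.56, 2.17 and 1.99 CPM per rat without DEN at 14 weeks and 8.16, 16.05, 17.4 and 14.5 CPM in NT liver, a log2 fold change of 3.10 (SE 0.30) and the widest of the 9 at that time. At 20 weeks its values were 2.11, 1.23, 3.04 and 1.30 CPM without DEN and 3.83, 2.10, 4.39 and 7.71 CPM in NT liver, and the log2 fold change of 1.24 (SE 0.42) was not called (edgeR, Benjamini-Hochberg adjusted p = 0.0543). Kif18a, which damps chromosome movement at the metaphase plate, was not called at 20 weeks either, with 0.62 (SE 0.38, edgeR, Benjamini-Hochberg adjusted p = 0.238). Kif18b, which trims the astral microtubules, and Kif2c, which takes microtubules apart at centromeres, rose by 2.38 (SE 0.17) and 2.55 (SE 0.19) at 8 weeks, 2.89 (SE 0.25) and 2.66 (SE 0.28) at 14 weeks and 1.07 (SE 0.30) and 1.30 (SE 0.42) at 20 weeks.

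The count at 20 weeks rested on single rats. It fell from 7 to 1 without rat H16, to 3 without H14 or without H28, and to 4 without H26 or without F03, the F rat of that group. The counts at 8 and 14 weeks were 9 without the F rats and without any 1 rat. Whether the effect of DEN on NT liver differed between times was tested as an interaction. From 8 to 14 weeks 0 of 9 mitotic members were called (all genes: 4.16% higher, 4.8% lower), with differences of -0.56 to 0.76 on the log2 scale and 0 at an unadjusted p of at most 0.05 (2980 of all 11219 genes), but 3 were called without rat F06. From 14 to 20 weeks all 9 differences were negative, from -1.85 to -0.67, against a median of 0.00 over all genes. Of these, 2 were called, Kif11 at -1.52 (SE 0.33, edgeR, Benjamini-Hochberg adjusted p = 0.0398) and Kif18b at -1.82 (SE 0.40, edgeR, Benjamini-Hochberg adjusted p = 0.0417), with 0.373% of all genes called lower and 0.365% higher, and 8 had an unadjusted p of at most 0.05, as had 1912 of all 11245 genes. The count of 2 called was 4 without the F rats, 6 with DESeq2, 0 with all 8 groups fitted together, and between 0 and 5 with 1 rat left out. It was 0 without any 1 of H09, H10, H21, H22, H23, F03, H13, H15 or H25, 1 without H11, H12, H14 or H16, 4 without F06 or H26, and 5 without H28.

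**Figure D2:**
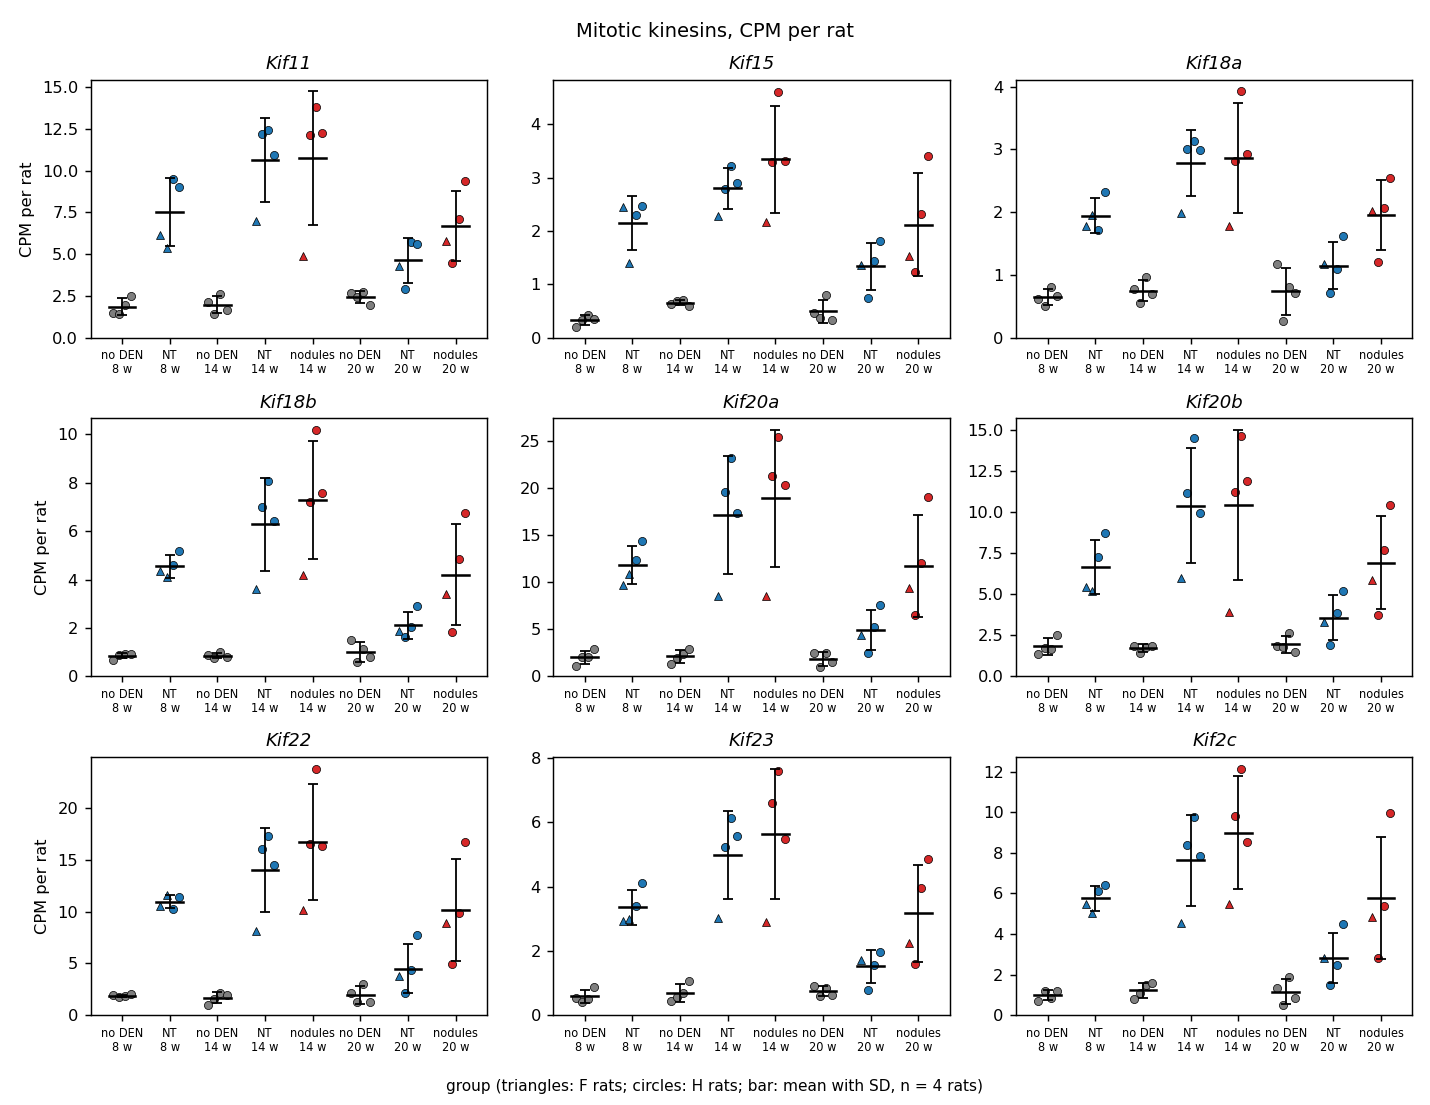
CPM per rat (vertical axes, linear, from 0) of the 9 mitotic kinesins in the 8 groups (horizontal axes), with triangles for F rats, circles for H rats and the mean with SD (n = 4 rats). Each panel shows low no DEN groups, a rise in NT liver at 8 and 14 weeks and lower NT values at 20 weeks, with Kif20a at 17.4 to 23.3 CPM in the 3 H rats and 8.54 CPM in rat F06 in NT liver at 14 weeks.

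In nodules all 9 mitotic kinesins were called higher than in no DEN liver at both times. Nodules shared the no DEN rats with NT liver, so their fold changes stand side by side and were not tested as a likeness. At 14 weeks the fold changes ran from 1.90 to 3.30 on the log2 scale with a median of 2.84, and 23.9% of all genes were called higher and 15.2% lower. At 20 weeks they ran from 1.35 to 2.62 with a median of 2.05, and 23.6% of all genes were called higher and 15.2% lower. Kif22 rose most at 14 weeks, to 10.2, 16.6, 23.8 and 16.3 CPM per rat, and Kif20a at 20 weeks, to 9.40, 6.51, 12.01 and 19.1 CPM. The log2 fold changes were 3.30 (SE 0.31, edgeR, Benjamini-Hochberg adjusted p = 5.49e-05) and 2.62 (SE 0.37, edgeR, Benjamini-Hochberg adjusted p = 0.000409). The counts stayed at 9 without the F rats, without any other 1 rat and with either nodule of each rat alone. The nodule effect was smaller at 20 than at 14 weeks for all 9, by -1.04 to -0.27, but 0 were called (0.0862% of all genes called either way), and 1 had an unadjusted p of at most 0.05 (378 of all 11607 genes).

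Nodules and NT liver of the same rats differed in the mitotic kinesins at 20 weeks and not detectably at 14 weeks. At 14 weeks the log2 differences lay between -0.02 and 0.23, and 0 of 9 were called with or without the rat as a block (0% of all 11466 genes in either fit, with 1348 at an unadjusted p of at most 0.05 without the block and 10 higher and 25 lower with DESeq2). The unadjusted p was at most 0.05 for 0 of the 9. At 20 weeks all 9 differences were positive, from 0.49 to 1.22 with a median of 0.96. Without the block 0 of 9 were called (0% of all 11546 genes, with 2767 at an unadjusted p of at most 0.05, 7 of the 9 among them). Paired by rat, with the rat as a block, 8 of 9 were called higher, and 9.21% of all genes were called higher and 5.46% lower. Kif20a differed by 1.22 (SE 0.10, edgeR, Benjamini-Hochberg adjusted p = 3.51e-06) and Kif22 by 1.15 (SE 0.10, edgeR, Benjamini-Hochberg adjusted p = 4.91e-06), higher in nodules of 4 of 4 rats for both. Kif11, at 0.49 (SE 0.11, edgeR, Benjamini-Hochberg adjusted p = 0.00556), missed the size threshold alone. Without the block, DESeq2 called 1 of 9 and the fit of all 8 groups 5 of 9.

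Single nodules spread at both times. Summed over the 9 mitotic members, the 8 nodules at 14 weeks lay between 42.8 and 121.9 CPM with a median of 94.6, and 5 of 8 were above the NT liver of their rat. At 20 weeks the 8 nodules lay between 20.1 and 100.3 CPM with a median of 51.1, and 8 of 8 were above it. The highest nodule held 2.85 times the sum of the lowest at 14 weeks and 4.99 times at 20 weeks, where the lowest was nodule 2 of rat H25. The higher of the 2 nodules of a rat held 1.03 to 1.28 times the sum of the lower at 14 weeks and 1.22 to 2.11 times at 20 weeks. In rat H25 nodule 2 was close to its NT liver, with 3.75 CPM of Kif20a against 2.59 in NT liver and 10.99 in nodule 1. In rat H28 nodule 2 had 23.9 CPM of Kif20a against 7.86 in NT liver and 14.6 in nodule 1, and was the highest of the 8 nodules at that time. These values are scaled over the 40 single libraries and differ slightly from those per rat. No test was made of single nodules.

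**Figure D3:**
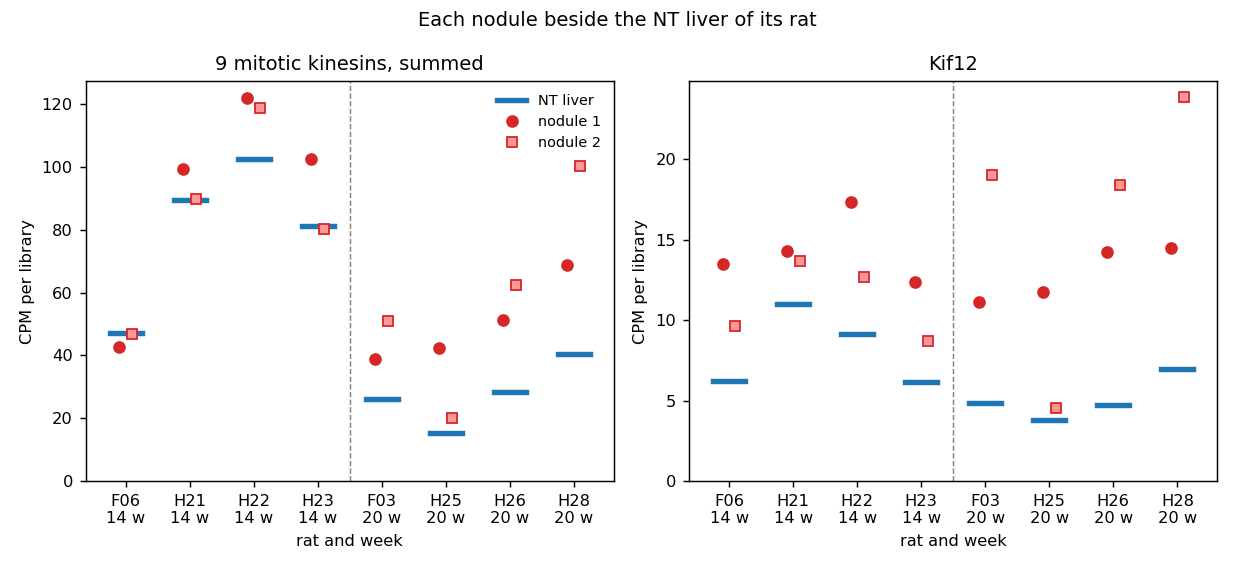
Summed CPM of the 9 mitotic kinesins (left) and CPM of Kif12 (right) in NT liver (blue bar), nodule 1 (red circle) and nodule 2 (pale square) of each rat, with 14 week rats left of the dashed line. At 14 weeks nodules and NT liver lie close together for the sum, at 20 weeks all 8 nodules lie above their NT liver, and for Kif12 all 16 nodules do.

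With the difference between nodules and NT liver itself compared between the times, a comparison chosen after its values were seen, 4 mitotic kinesins were called higher at 20 weeks. This fit was paired by rat, and 0.45% of all genes were called higher in it. The values were 1.13 (SE 0.11) for Kif20a, 1.02 (SE 0.18) for Kif20b, 0.94 (SE 0.11) for Kif22 and 0.77 (SE 0.13) for Kif2c on the log2 scale, with edgeR, Benjamini-Hochberg adjusted p of 0.00297, 0.0460, 0.0110 and 0.0406. Without the block 0 were called. The count was 1 without H21, F03, H25 or H26 and 2 without H22 or H28, and Kif20a passed with each rat left out.

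Genes that work with the mitotic kinesins, and proliferation genes, moved with them. In the 5 comparisons with no DEN liver 14.3% to 23.9% of all genes were called higher. Of 14 partners (Prc1, Racgap1, Ect2, Plk1, Aurka, Aurkb, Incenp, Birc5, Cdca8, Tpx2, Cit, Kntc1, Hmmr and Numa1) 13 were called higher in NT liver at 8 and at 14 weeks and in nodules at both times, and 9 in NT liver at 20 weeks. Their median log2 fold changes were 2.19, 2.35 and 1.00 in NT liver at 8, 14 and 20 weeks and 2.52 and 1.85 in nodules at 14 and 20 weeks. Of 7 proliferation genes (Mki67, Top2a, Cdk1, Ccnb1, Ccna2, Pcna and Mcm2) 7 were called higher in those comparisons and 4 in NT liver at 20 weeks. Mki67, the gene of the Ki-67 antigen of cycling cells, averaged 5.34 ± 1.27 CPM (SD, n = 4) without DEN, 39.7 ± 12.8 CPM in NT liver and 43.7 ± 10.8 CPM in nodules at 14 weeks. The part of the number of dividing cells in the kinesin values was not tested.

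Among the 20 other kinesins, Kif12 stood apart. It is a kinesin of epithelia of the liver, kidney and pancreas. Without DEN the 4 rats had 1.35, 1.43, 0.776 and 0.943 CPM at 8 weeks, 0.852, 1.04, 0.712 and 0.929 CPM at 14 weeks and 0.704, 0.855, 0.856 and 1.05 CPM at 20 weeks. NT liver had 3.01, 3.15, 2.62 and 3.39 CPM at 8 weeks, 5.98, 10.5, 8.74 and 5.97 CPM at 14 weeks and 4.59, 3.63, 4.61 and 6.71 CPM at 20 weeks. Nodules had 11.2, 13.5, 14.3 and 10.3 CPM at 14 weeks and 15.1, 7.27, 15.9 and 19.0 CPM at 20 weeks. Every DEN-treated value lay above every untreated value of all 3 times. The log2 fold change in NT liver was 1.43 (SE 0.21) at 8 weeks (edgeR, Benjamini-Hochberg adjusted p = 0.000629), 3.18 (SE 0.23) at 14 weeks (edgeR, Benjamini-Hochberg adjusted p = 5.07e-06) and 2.50 (SE 0.24) at 20 weeks (edgeR, Benjamini-Hochberg adjusted p = 0.000214). In nodules it was 3.78 (SE 0.18) at 14 weeks (edgeR, Benjamini-Hochberg adjusted p = 2.93e-06) and 4.01 (SE 0.31) at 20 weeks (edgeR, Benjamini-Hochberg adjusted p = 2.31e-05).

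The rise of Kif12 in NT liver grew from 8 to 14 weeks by 1.74 (SE 0.33) on the log2 scale (edgeR, Benjamini-Hochberg adjusted p = 0.00720), and its change from 14 to 20 weeks, -0.68 (SE 0.35), was not called (edgeR, Benjamini-Hochberg adjusted p = 0.338). All 16 nodules had more Kif12 than NT liver of their rat. Paired by rat, the difference was 1.498 (SE 0.13) at 20 weeks (edgeR, Benjamini-Hochberg adjusted p = 8.28e-06). Without the block it was 1.52 (SE 0.28, edgeR, Benjamini-Hochberg adjusted p = 0.0949). At 14 weeks it was 0.66 (SE 0.11) and not called (edgeR, Benjamini-Hochberg adjusted p = 0.167). Nodule 2 of rat H25, low in mitotic kinesins, was also the lowest nodule for Kif12, with 4.55 CPM against 3.78 in its NT liver, and nodule 2 of H28 the highest with 23.9 CPM. Bile duct markers moved in the same groups. In the 5 comparisons with no DEN liver 14.3% to 23.9% of all genes were called higher and 3.82% to 15.2% lower. Of 6 cholangiocyte markers tested, 3 were called higher in NT liver at 8 weeks and 5 in each other comparison with no DEN liver, and 1 was called lower in nodules at 20 weeks. Their summed level was 46.7 to 53.0 CPM per rat without DEN and 52.7 to 61.9 in NT liver at 8 weeks. It was 43.1 to 53.4 CPM per rat without DEN, 59.8 to 106.7 in NT liver and 88.4 to 134.6 in nodules at 14 weeks, and 43.7 to 54.8, 53.6 to 78.3 and 87.3 to 200.5 CPM in the same order at 20 weeks. The defining marker Krt19 was at 1.49 ± 0.492 CPM (SD, n = 4) without DEN, 19.6 ± 11.7 in NT liver and 36.3 ± 20.2 in nodules at 14 weeks, and their part in the Kif12 values was not tested.

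Kinesin-II is the motor of transport into cilia, built from Kif3a with Kif3b or Kif3c and the adaptor Kifap3. Kif3a had 1.81, 2.04, 2.49 and 2.32 CPM per rat without DEN, 4.46, 9.53, 8.09 and 7.42 CPM in NT liver and 4.08, 8.99, 10.5 and 9.52 CPM in nodules at 14 weeks. At 20 weeks no DEN liver had 2.53, 2.78, 1.57 and 1.64 CPM, NT liver 3.79, 2.81, 5.15 and 4.68 CPM and nodules 6.71, 5.32, 10.9 and 12.5 CPM. Both NT liver and nodules lay above the untreated rats without overlap at both times, narrowly in rat H25 at 20 weeks (2.81 against 2.78 CPM), and rat F06 was the lowest at 14 weeks. The call in NT liver at 20 weeks was lost without rat H16. The log2 fold changes were 1.80 (SE 0.22) in NT liver and 1.91 (SE 0.28) in nodules at 14 weeks and 0.98 (SE 0.25) and 2.03 (SE 0.30) at 20 weeks, with edgeR, Benjamini-Hochberg adjusted p of 9.72e-05, 0.000561, 0.0148 and 0.000560. At 8 weeks the difference was 0.47 (SE 0.20) and was not called (edgeR, Benjamini-Hochberg adjusted p = 0.0863), and the increase from 8 to 14 weeks was 1.33 (SE 0.31, edgeR, Benjamini-Hochberg adjusted p = 0.0168).

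Kif3c followed Kif3a and Kif3b did not. In Kif3c no DEN liver had 0.568, 0.280, 0.499 and 0.498, NT liver 0.792, 1.97, 1.84 and 1.58 and nodules 0.819, 1.98, 2.35 and 2.11 CPM per rat at 14 weeks. At 20 weeks they were 0.375, 0.534, 0.571 and 0.504 CPM without DEN, 0.351, 0.464, 0.946 and 1.45 CPM in NT liver and 1.30, 1.43, 3.15 and 2.80 CPM in nodules. NT liver overlapped the untreated rats at 20 weeks and nodules did not. Kif3c was called in NT liver at 14 weeks by 1.76 (SE 0.32, edgeR, Benjamini-Hochberg adjusted p = 0.000968) and in nodules at 14 weeks by 1.94 (SE 0.37, edgeR, Benjamini-Hochberg adjusted p = 0.00220) and 20 weeks by 2.09 (SE 0.36, edgeR, Benjamini-Hochberg adjusted p = 0.00110). Kif3b lay between -0.10 and 0.10 on the log2 scale in the 5 comparisons with no DEN liver and was called in none. Kifap3 was called higher in NT liver at 14 weeks, by 0.55 (SE 0.10), and in nodules at both times, by 0.78 (SE 0.16) and 0.72 (SE 0.14). Against NT liver of the same rats at 20 weeks, paired, nodules had more Kif3a by 1.05 (SE 0.12, edgeR, Benjamini-Hochberg adjusted p = 5e-05) and more Kif3c by 1.48 (SE 0.20, edgeR, Benjamini-Hochberg adjusted p = 0.000217), and all 8 nodules lay above their NT liver for both genes. Without the block neither was called. Of the 18 other kinesins tested in this comparison 4 were called with the block (Kif12, Kif3a, Kif3c and Kif9), where 9.21% of all genes were called higher and 5.46% lower, and 0 without it, but 2 without it when rat H25 was left out. Summed bile duct markers averaged 47.4 CPM without DEN, 85.4 in NT liver and 115.8 in nodules at 14 weeks. At 20 weeks they averaged 48.5, 67.9 and 150.0 CPM. Their part in the Kif3a and Kif3c values was not tested.

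Kif9, a kinesin of motile cilia and flagella, was near the limit of detection. At 14 weeks no DEN liver had 0.284, 0.160, 0 and 0.232 CPM per rat, and nodules 0.426, 0.507, 0.740 and 0.835 CPM. At 20 weeks they were 0.235, 0.107, 0.0475 and 0.0420 CPM without DEN and 0.444, 0.495, 0.704 and 0.677 CPM in nodules. The fitted difference was 1.85 (SE 0.56, edgeR, Benjamini-Hochberg adjusted p = 0.0213) and 2.39 (SE 0.46, edgeR, Benjamini-Hochberg adjusted p = 0.00200) on the log2 scale, and the groups did not overlap. Against no DEN liver Kif9 passed the filter on low counts only in the comparisons with nodules, where it was highest, so that these calls are not independent of the filter. The call at 14 weeks was lost without rat H10 and with nodule 2 alone, and at 20 weeks Kif9 was too low to be tested with either nodule alone. Paired with NT liver at 20 weeks the difference was 0.75 (SE 0.26, edgeR, Benjamini-Hochberg adjusted p = 0.0435). The 4 motile cilia markers in the files passed the filter on low counts against no DEN liver only where nodules or, for 1 marker, NT liver at 14 weeks were compared, so no count of calls is given. Their summed level in nodules was 1.72 to 2.85 CPM per rat at 14 weeks against 0.249 to 0.319 CPM without DEN and 0.964 to 2.06 CPM in NT liver. Their part in the Kif9 values was not tested. Kif27, another ciliary kinesin, lay between 0.120 and 0.308 CPM per rat over all groups, and Kif19, which sets the length of motile cilia, between 0.0323 and 0.273 CPM.

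Kif26a and Kif26b are kinesins without ATPase activity that bind microtubules and take part in signalling. Kif26b had 1.14, 0.961, 1.21 and 0.597 CPM per rat without DEN, 1.67, 4.34, 3.90 and 5.03 CPM in NT liver and 1.30, 3.54, 4.22 and 4.54 CPM in nodules at 14 weeks. In NT liver at 8 weeks it had 0.461, 0.584, 0.511 and 1.10 CPM against 0.655, 1.26, 0.776 and 0.865 CPM without DEN, so that the ranges overlapped before 14 weeks. At 20 weeks the values were 0.797, 0.534, 0.856 and 1.51 without DEN, 1.66, 2.21, 4.17 and 1.89 in NT liver and 2.44, 2.07, 2.81 and 2.06 CPM in nodules. Rat F06 was well below the 3 H rats in both tissues. Kif26b was called higher in NT liver at 14 weeks by 1.98 (SE 0.34, edgeR, Benjamini-Hochberg adjusted p = 0.000838) and at 20 weeks by 1.44 (SE 0.37, edgeR, Benjamini-Hochberg adjusted p = 0.0154), and in nodules by 1.78 (SE 0.40, edgeR, Benjamini-Hochberg adjusted p = 0.00510) and 1.29 (SE 0.28, edgeR, Benjamini-Hochberg adjusted p = 0.00397). The difference at 8 weeks was -0.43 (SE 0.33), and the change from 8 to 14 weeks, 2.41 (SE 0.51), was the widest of the kinesins tested (edgeR, Benjamini-Hochberg adjusted p = 0.0109). Nodules and NT liver differed little in it, by -0.16 (SE 0.42) and -0.14 (SE 0.28). In the 5 comparisons with no DEN liver 14.3% to 23.9% of all genes were called higher and 3.82% to 15.2% lower. Stellate cell and myofibroblast markers were called higher in 6 of 8 at 8 and 14 weeks and in 4 of 8 at 20 weeks in NT liver, and in 5 of 8 in nodules at both times, with 1 lower in NT liver at 14 weeks. Their summed level at 14 weeks was 237.9 to 299.6 CPM per rat without DEN, 416.9 to 526.1 in NT liver and 462.9 to 529.9 in nodules, and at 8 weeks 228.0 to 280.8 without DEN and 403.4 to 513.2 in NT liver. Their part in the Kif26b values was not tested.

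Kif26a had 0.319, 0.360, 0.249 and 0.299 CPM without DEN, 0.733, 0.690, 0.774 and 1.04 CPM in NT liver and 0.597, 0.780, 0.780 and 1.11 CPM in nodules at 14 weeks, with no overlap, and was called in both, by 1.43 (SE 0.26, edgeR, Benjamini-Hochberg adjusted p = 0.000828) and by 1.39 (SE 0.27, edgeR, Benjamini-Hochberg adjusted p = 0.00257). At 20 weeks 1 untreated rat, H13, had 1.08 CPM, above all DEN-treated values, and Kif26a was not called in NT liver, at 0.38 (SE 0.42), or in nodules, at 0.67 (SE 0.43).

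Kif21b, which slows microtubule growth and is abundant in lymphocytes and neurons, was called higher in 4 comparisons. At 14 weeks no DEN liver had 0.887, 1.20, 0.784 and 0.929, NT liver 2.55, 1.84, 1.87 and 1.61 and nodules 1.16, 1.99, 1.65 and 1.55 CPM per rat. At 20 weeks they were 1.08, 0.908, 0.666 and 0.504 CPM without DEN, 1.75, 1.39, 1.59 and 1.73 CPM in NT liver and 1.39, 1.46, 1.55 and 1.74 CPM in nodules. Nodules at 14 weeks overlapped untreated liver through rat F06 and the other 3 comparisons did not overlap. The log2 fold changes were 1.09 (SE 0.21) and 1.05 (SE 0.25) in NT liver and 0.73 (SE 0.23) and 0.94 (SE 0.25) in nodules at 14 and 20 weeks, with edgeR, Benjamini-Hochberg adjusted p of 0.00151, 0.0122, 0.0267 and 0.0108. The call in nodules at 14 weeks was lost without any 1 of H09, H11, H12, H21 or H22, and that at 20 weeks with nodule 1 alone. The 7 lymphocyte markers summed to 2.27 to 3.38 CPM per rat without DEN, 3.48 to 6.07 in NT liver and 3.47 to 8.596 in nodules at 14 weeks. Of those tested, 6 of 6 were called higher in NT liver at 8 weeks, where Kif21b was at 0.80 (SE 0.31) and not called. Of those, 1 of 4 was called higher in NT liver at 14 weeks and 1 of 5 at 20 weeks, and 3 of 6 and 2 of 6 in nodules, and their part was not tested. The share of all genes called higher was 16.5%, 22.8% and 14.3% in NT liver at 8, 14 and 20 weeks. In nodules it was 23.9% and 23.6% at 14 and 20 weeks.

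Kif2a, a relative of Kif2c that takes microtubules apart in dividing and resting cells, changed least of the members that rose. It had 6.18, 5.81, 5.91 and 5.27 CPM without DEN, 7.98, 10.4, 9.77 and 9.10 CPM in NT liver and 8.05, 10.04, 10.1 and 8.43 CPM in nodules at 14 weeks, without overlap. The log2 fold changes were 0.72 (SE 0.11, edgeR, Benjamini-Hochberg adjusted p = 0.000256) and 0.64 (SE 0.12, edgeR, Benjamini-Hochberg adjusted p = 0.00191). At 20 weeks nodules had 7.85, 7.08, 9.15 and 9.49 CPM against 6.29, 5.50, 6.28 and 6.17 CPM, and the difference of 0.44 (SE 0.12) was under the size threshold.

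**Figure D4:**
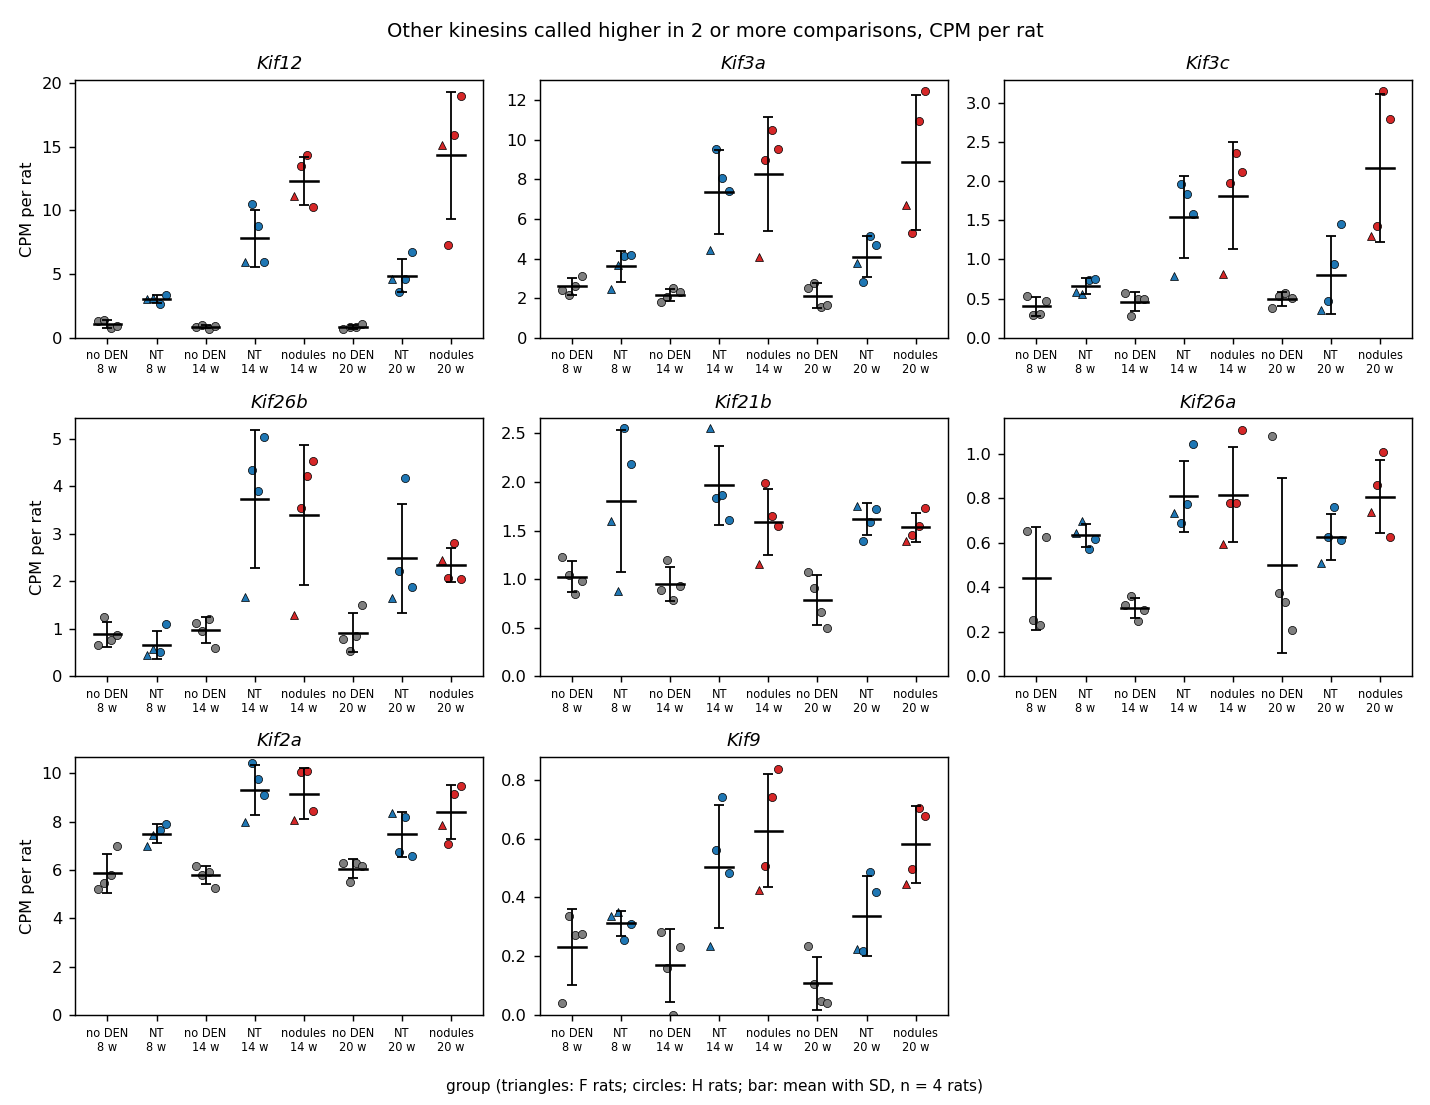
CPM per rat (vertical axes, linear, from 0) of the 8 other kinesins called higher in 2 or more comparisons, in the 8 groups (horizontal axes), with triangles for F rats, circles for H rats and the mean with SD (n = 4 rats). Kif12 rises at every time and reaches 7.27 to 19.0 CPM in nodules at 20 weeks, Kif3a and Kif3c are higher in nodules than in NT liver at 20 weeks, and Kif26b does not rise at 8 weeks.

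In number, 1 of 16 other kinesins tested was called higher in NT liver at 8 weeks (Kif12), 7 of 16 at 14 weeks (Kif12, Kif21b, Kif26a, Kif26b, Kif2a, Kif3a and Kif3c) and 4 of 16 at 20 weeks (Kif12, Kif21b, Kif26b and Kif3a), and 0 were called lower. These stand beside 16.5%, 22.8% and 14.3% of all genes called higher. The count called lower was 1 at 14 weeks without F06 or H11, and 2 at 20 weeks without H26 and 1 without H13 or H15. In nodules 8 of 17 were called higher at 14 weeks (those 7 and Kif9, which passed the filter through the nodules) and 6 of 17 at 20 weeks (Kif12, Kif21b, Kif26b, Kif3a, Kif3c and Kif9), where 23.9% and 23.6% of all genes were called higher. At 8 weeks the count called higher in NT liver was 2 without F09 or without F10 and 3 without both. Without the F rats it was 8 in NT liver at 14 weeks and 7 in nodules at 20 weeks. The medians over the other kinesins tested were -0.12, 0.52 and 0.24 in NT liver and 0.46 and 0.42 in nodules on the log2 scale. The effect in NT liver grew from 8 to 14 weeks for 4 of 17, Kif12, Kif26b, Kif3a and the kinesin-binding gene Kif1bp, where 4.16% of all genes were called higher and 4.8% lower, and for 3 of 17 without the F rats. Kif1bp changed by 0.54 (SE 0.15, edgeR, Benjamini-Hochberg adjusted p = 0.0342) from -0.26 (SE 0.13) at 8 weeks to 0.28 (SE 0.09) at 14 weeks, and was in neither comparison called. The change of Kif1bp was no longer called with any 1 of 11 rats left out. From 14 to 20 weeks 0 of 17 were called in NT liver (0.365% of all genes higher, 0.373% lower), with 2 at an unadjusted p of at most 0.05 in edgeR. In nodules 0 of 18 were called (0.0862% of all genes either way), with 0 at that unadjusted p.

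Of the 17 other kinesins tested, 4 were called lower in nodules at each time, Kif1b, Kif13a, Kif13b and Kif16b, where 15.2% of all genes were called lower, and 2 of 17 without the F rats. Kif1b, which carries mitochondria and vesicles, had 53.4, 49.6, 43.3 and 42.2 CPM per rat without DEN, 37.0, 45.2, 36.0 and 44.3 CPM in NT liver and 9.86, 28.6, 20.5 and 31.8 CPM in nodules at 14 weeks. At 20 weeks no DEN liver had 42.6, 57.2, 43.0 and 47.1 CPM, NT liver 31.3, 32.4, 52.2 and 29.0 CPM and nodules 19.4, 33.7, 30.5 and 21.8 CPM. At each of these times all nodule values lay below the untreated values of that time, and the nodules of rat F06 were the lowest at 14 weeks. The log2 fold change was -1.07 (SE 0.30) at 14 weeks (edgeR, Benjamini-Hochberg adjusted p = 0.0162) and -0.88 (SE 0.18) at 20 weeks (edgeR, Benjamini-Hochberg adjusted p = 0.00267). Without the F rats it was -0.80 (SE 0.15) and -0.74 (SE 0.17) and called in both. The call at 14 weeks was lost without rat H22 and with nodule 1 alone, and that at 20 weeks with nodule 2 alone.

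Kif13a, a carrier of endosomal vesicles, had 36.4, 41.0, 31.3 and 36.0 CPM without DEN and 22.6, 23.2, 21.1 and 23.5 CPM in nodules at 14 weeks. At 20 weeks it had 33.1, 40.4, 32.0 and 35.9 CPM without DEN and 18.4, 24.8, 22.5 and 18.9 CPM in nodules. Nodules lay below untreated liver of the same time without overlap, and F06 was among the other rats here. The fold changes were -0.70 (SE 0.10, edgeR, Benjamini-Hochberg adjusted p = 0.000384) and -0.77 (SE 0.12, edgeR, Benjamini-Hochberg adjusted p = 0.000725), and -0.67 (SE 0.09) and -0.69 (SE 0.12) without the F rats, with both called. In NT liver Kif13a was lower by -0.42 (SE 0.14), -0.46 (SE 0.08) and -0.45 (SE 0.10) at 8, 14 and 20 weeks, with edgeR, Benjamini-Hochberg adjusted p of 0.0383, 0.000963 and 0.00684, each short of the size threshold of 0.5.

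Kif13b, the relative of Kif13a, and Kif16b, a motor of early endosomes, lost their calls without the F rats. Kif13b had 19.3, 17.9, 16.2 and 17.8 CPM without DEN and 6.41, 12.5, 10.5 and 14.6 CPM in nodules at 14 weeks, and 15.4, 17.5, 15.4 and 15.7 CPM without DEN and 9.18, 14.2, 11.3 and 9.36 CPM in nodules at 20 weeks. Kif16b had 26.4, 21.7, 24.5 and 22.9 CPM without DEN and 7.47, 17.6, 15.4 and 18.4 CPM in nodules at 14 weeks, and 20.0, 27.9, 22.8 and 24.1 CPM without DEN and 14.7, 18.5, 18.6 and 16.6 CPM in nodules at 20 weeks. The first value of each nodule group is that of the F rat, and it was the lowest in all 4. With all rats Kif13b fell by 0.71 and 0.56 and Kif16b by 0.72 and 0.50 on the log2 scale and were called. Without the F rats Kif13b was at -0.50 (SE 0.11) and -0.47 (SE 0.15) and Kif16b at -0.47 (SE 0.09) and -0.42 (SE 0.12), and neither was called. At 14 weeks both calls were also lost without H09 or H22 and with nodule 1 alone, and that of Kif16b without H10, H11 or H12. At 20 weeks both were also lost without H28 and with nodule 2 alone, and that of Kif16b without H14, with no filter on low counts and in the fit of all 8 groups.

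The 2 members called lower in nodules without the F rats were Kif1b and Kif13a at both times. At 14 weeks the count was also 2 without H09 and 1 without H22, and at 20 weeks 2 without H28. With 1 nodule per rat it was 1 for nodule 1 alone at 14 weeks and for nodule 2 alone at 20 weeks. Against no DEN liver, 15.2% of all genes were called lower in nodules at each time, and 23.9% and 23.6% higher at 14 and 20 weeks. Of 8 hepatocyte markers 5 were called lower and 1 higher in nodules at both times. Their summed level was 277015 to 311127 CPM per rat without DEN and 162822 to 196169 CPM in nodules at 14 weeks, and 277956 to 322120 and 158328 to 224843 CPM at 20 weeks, and its part in the falls was not tested. Both nodules of rat F06 were low in other cargo motors too, with 5.77 and 7.95 CPM of Kif5b against 24.7 in its NT liver and 21.8 to 34.6 CPM in the nodules of the other 14 week rats. These libraries also had 34.5% and 28.2% of their read pairs counted as without a feature, against 21.5% to 26.3% in the other 38 libraries. The part of this in the kinesin values was not tested. At 8 weeks rats F09 and F10 had 14.9 and 15.96 CPM of Kif1b, below the 2 H rats with 35.8 and 23.6 CPM, and 0 members were called lower. Without rat H17, 4 were (Kif13a, Kif13b, Kif16b and Kif1b). Against NT liver of their own rat, 0 of 8 nodules at 14 weeks were higher in Kif1b, Kif13b and Kif16b and 1 of 8 in Kif13a, and at 20 weeks 1 of 8 in Kif1b, Kif13a and Kif13b and 2 of 8 in Kif16b. With the rat as a block the log2 differences at 14 weeks were -0.98 (SE 0.23) for Kif1b, -0.21 (SE 0.07) for Kif13a, -0.72 (SE 0.15) for Kif13b and -0.58 (SE 0.22) for Kif16b, and 0 kinesins were called lower at either time.

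**Figure D5:**
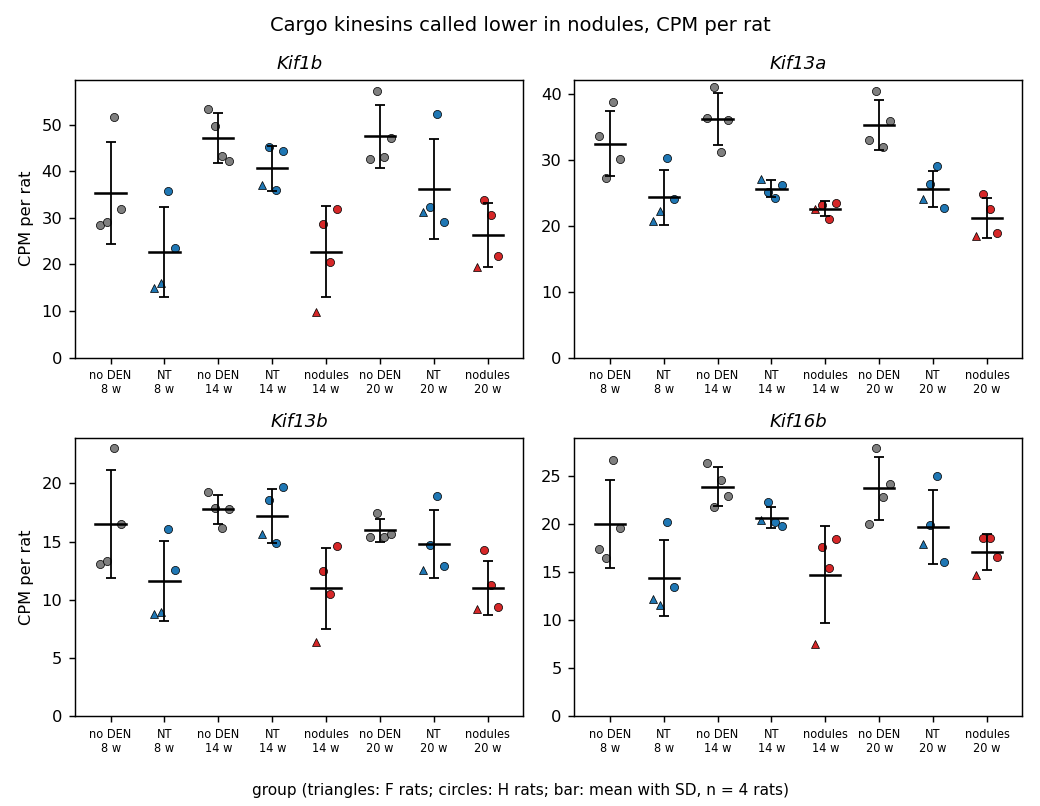
CPM per rat (vertical axes, linear, from 0) of Kif1b, Kif13a, Kif13b and Kif16b in the 8 groups (horizontal axes), with triangles for F rats, circles for H rats and the mean with SD (n = 4 rats). F rats are the lowest of their group in nodules for Kif1b, Kif13b and Kif16b, with Kif1b at 9.86 CPM in F06 against 20.5 to 31.8 CPM in the 3 H rats at 14 weeks.

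The remaining members were called in no comparison with no DEN liver. Kif1c, a motor of Golgi and endoplasmic reticulum vesicles, lay between -0.23 and -0.02 on the log2 scale in the 5 comparisons, and Kif5b, the general cargo motor of most cells, between -0.13 and 0.31. Kif5b in NT liver at 14 weeks, at 0.31 (SE 0.09, edgeR, Benjamini-Hochberg adjusted p = 0.0153), was under the size threshold. Kif5a, a cargo motor of neurons at 0.178 to 0.704 CPM per rat, lay between 0.39 and 0.72 on the log2 scale, and Kif1bp between -0.26 and 0.42. Kif1bp in nodules was higher by 0.41 (SE 0.11, edgeR, Benjamini-Hochberg adjusted p = 0.0103) and 0.42 (SE 0.12, edgeR, Benjamini-Hochberg adjusted p = 0.0134), also under that threshold. Kif5c, a cargo motor of neurons, was at 0 to 0.230 CPM per rat over all groups, where 3 counts in a library of median depth are 0.0984 CPM.

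Kinesin genes with other symbols and partners were counted from a list of 11 names, of which 8 were in the files, Kif1bp among them. Kifc1, a mitotic motor that walks toward the minus ends, was called higher in all 5 comparisons with no DEN liver, by 2.57 (SE 0.18), 2.67 (SE 0.27) and 1.42 (SE 0.27) in NT liver at 8, 14 and 20 weeks and by 3.01 (SE 0.27) and 2.42 (SE 0.29) in nodules at 14 and 20 weeks. Kifc3, a minus-end motor of epithelial junctions, was also called higher in all 5, by 0.54 (SE 0.14), 1.10 (SE 0.10) and 0.75 (SE 0.21) in NT liver and by 1.31 (SE 0.12) and 1.33 (SE 0.19) in nodules. Kifc2 was called lower in NT liver at 14 weeks, by -0.64 (SE 0.11), and its effect changed by -0.82 (SE 0.17) from 8 weeks, while that of Kifap3 changed by 0.63 (SE 0.14). The kinesin light chains Klc1, Klc3 and Klc4 were called in none. Dynein, the motor toward the other end of the microtubule, and its activator dynactin had 1 or 2 of 20 genes tested called higher in each comparison with no DEN liver, 0 lower and medians of -0.07 to 0.04 on the log2 scale. Of all genes, 14.3% to 23.9% were called higher and 3.82% to 15.2% lower in these 5 comparisons. The light chain gene Dynlt1 was called in all 5, by 1.64 (SE 0.19), 2.13 (SE 0.16) and 1.19 (SE 0.29) in NT liver and 2.44 (SE 0.16) and 2.19 (SE 0.28) in nodules. Dynll1 was called in NT liver at 8 weeks and in nodules at both times and Dctn1 in NT liver at 14 weeks.

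Without DEN the kinesins did not change detectably with age. Of the 9 mitotic and 15 other members tested, 0 were called between 8 and 14 weeks, and of 9 and 14, 0 between 14 and 20 weeks (0% of all genes called in each, with 1038 and 670 genes at an unadjusted p of at most 0.05 in the edgeR quasi-likelihood test). Of the members, Kif15 and Kif1bp were at an unadjusted p of at most 0.05 between 8 and 14 weeks and 0 between 14 and 20 weeks. The summed mitotic kinesins were at 10.99 ± 2.23, 11.7 ± 2.07 and 12.3 ± 3.73 CPM (SD, n = 4) in untreated rats at 8, 14 and 20 weeks. In NT liver the sums were 54.8 ± 7.48, 76.7 ± 22.6 and 26.6 ± 9.92 CPM, and in nodules 85.0 ± 30.0 CPM at 14 and 52.7 ± 23.1 CPM at 20 weeks.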

How the data were processed

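RNA of whole liver and of nodules was sequenced in 40 libraries. The unit of the files is counts: read pairs per gene, deposited by the authors, who per the submitters' processing notes aligned with STAR 2.7.1a to rn6 and counted with HTSeq, by gene and on the reverse strand, dropping pairs that aligned to several places. This leaves paralogous kinesins undercounted where they share sequence. The notes also name DESeq2 1.22.2. The files hold counts alone.

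Rows that name no gene were left out of library sizes. The share without a feature was 21.5% to 34.5%, ambiguous 0.816% to 1.56% and not unique 7.96% to 16.3%. The 2 nodules of each rat were summed. Groups were compared with the quasi-likelihood test of edgeR 4.0.16 in R 4.3.3 after its filter on low counts and TMM scaling, with Benjamini-Hochberg adjustment over all genes tested. Calls were made at an adjusted p of at most 0.05 with a log2 change of 0.5 or more either way, and between times on the adjusted p alone. CPM are scaled by TMM, per rat, and not by gene length, so levels of different genes were not compared. The code was tested on simulated data with known changes. Replicates are separate rats, and no pair of libraries within a group agreed within sampling noise (chi-square per degree of freedom at least 12.9).

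The labels give each library its rat, so NT liver and nodules are paired. Deviations from the group means correlated between them in every rat (r of 0.37 to 0.54 over 11466 genes at 14 weeks and 0.48 to 0.54 over 11546 genes at 20 weeks). Nodules and NT liver were compared without the pairing, with the paired fit printed beside it where it differs. The change of that difference between times was fitted with the pairing.

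Members were all genes of the symbol rule at a mean of at least 0.1 CPM, and all are named. Values of every rat are given for other kinesins called in 2 or more comparisons. Members and lists (mitotic partners, proliferation, dynein and dynactin, other kinesin-family genes and cell type markers) were chosen with earlier results of these data known. Alternatives were DESeq2 1.42.0, RLE scaling, no filter, 1 fit of all 8 groups, a stricter rule (adjusted p of at most 0.01, log2 fold change of at least 1), single nodules, the rat as a block, and leaving out each rat or the F rats.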

Additional observations from a re-analysis of the deposited data

Results flagged for a closer look

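Single rats stood apart from the other 3 of their group in 10 of 216 groups of 4 rats (27 members) by Dixon's test, and chance flags about 1 in 20. Rat F06 was the lowest of its group in 3 of them, with 1.99 CPM of Kif18a in NT liver and 7.15 CPM of Kif1bp and 71.3 CPM of Kif1c in nodules at 14 weeks, where the next lowest rats had 3.00, 8.38 and 124.2 CPM. Rat F10 was the lowest for Kif15 in NT liver at 8 weeks (1.401 CPM, next 2.30). For Kif1b, rat H07 was the highest without DEN at 8 weeks (51.5 CPM, next 31.9) and rat H26, the most deeply sequenced library, the highest in NT liver at 20 weeks (52.2 CPM, next 32.4). Without DEN, H14 was the highest for Kif13b (17.5 CPM) and the lowest for Kif2a (5.50 CPM) at 20 weeks, and H10 the lowest for Kif20b (1.402 CPM) at 14 weeks. H17 was the lowest for Kif27 in NT liver at 8 weeks (0.160 CPM).

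Effects that differed between times in a test of the difference itself were, in NT liver from 8 to 14 weeks, those of Kif12 (1.74 on the log2 scale), Kif26b (2.41), Kif3a (1.33) and Kif1bp (0.54). From 14 to 20 weeks in NT liver they were those of Kif11 (-1.52) and Kif18b (-1.82). For the difference between nodules and NT liver, 20 minus 14 weeks, paired by rat and chosen after its values were seen, they were those of Kif20a (1.13), Kif20b (1.02), Kif22 (0.94) and Kif2c (0.77).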

How the results depend on the processing

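Over 87 results for single kinesins and 1328 alternatives, 1173 kept direction and call, 155 kept direction and lost the call, and 0 turned. Of 457 alternatives to 30 counts, 72 moved a count by over 1.5 times, and the cause was not tested. With the stricter rule, NT liver at 20 weeks had 0 mitotic and 1 other kinesin higher (main 7 and 4), nodules at 14 weeks 5 others higher (main 8), nodules 0 lower at both times (main 4 each), and the changes between times 0 mitotic (NT, 14 to 20 weeks), 1 mitotic (nodules minus NT) and 1 other (NT, 8 to 14 weeks). DESeq2 gave 1 other lower in NT liver at 8 weeks, 1 mitotic and 3 others higher in nodules than in NT liver at 20 weeks, and 6 mitotic for NT from 14 to 20 weeks. The fit of all 8 groups gave 2 others higher in NT liver at 8 weeks, 5 mitotic and 3 others in nodules against NT liver at 20 weeks, 0 mitotic for NT from 14 to 20 weeks and 2 others from 8 to 14 weeks. Without the F rats, NT liver had 3 others higher at 8 weeks, 1 other lower at 14 weeks and 4 mitotic higher at 20 weeks, nodules 2 others lower at each time, and 4 mitotic changed in NT liver from 14 to 20 weeks. Nodule 1 alone gave 1 other lower at 14 weeks and 1 other higher against NT liver at 20 weeks, and nodule 2 alone 1 lower at 20 weeks. The rat as a block gave 8 mitotic and 4 others higher in nodules than in NT liver at 20 weeks (0 and 0 without the pairing), the change of that difference fell from 4 to 0 mitotic without the block, and the block changed no other count.

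Leaving out 1 rat gave 1 to 2 others higher and 0 to 4 lower in NT liver at 8 weeks, 0 to 1 lower at 14 weeks, and 1 to 8 mitotic higher and 0 to 2 others lower at 20 weeks. Nodules had 1 to 4 others lower at 14 weeks and 2 to 4 at 20 weeks, and 0 to 2 others higher than NT liver at 20 weeks. Between times, mitotic counts were 0 to 3 for NT from 8 to 14 weeks, 0 to 5 from 14 to 20 weeks and 1 to 4 for nodules minus NT, where others were 0 to 3. The number of members was 29, or 25 at a mean of at least 0.5 CPM. At the median depth counting error alone was 57.3% at 0.1 CPM, which limits Kif9, Kif19, Kif27 and Kif5c. What the letter F marks is not given in the labels.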
